A study of Mus musculus with 6 samples.

Results

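The Hippo pathway was followed through 10 of its genes in neocortical cells of mouse embryos that were made to express extra Insm1, a zinc-finger transcription factor of neural progenitors. The 10 genes were taken by symbol from a table of 22001 genes, and each had enough counts to be among the 13560 genes tested. They are the coactivators Yap1 and Wwtr1 (which encodes TAZ), the DNA-binding partners Tead1, Tead2 and Tead3, the secreted target genes Ctgf and Cyr61, the inhibitors Lats2 and Amotl2, and the LIM-domain adaptor Ajuba. They were chosen by pathway and with the measured fold changes of the same comparison known, so their differences are given as a description and support no statement about the pathway as a whole.

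In this pathway a chain of kinases ends in Lats1 and Lats2, which phosphorylate YAP and TAZ and hold them in the cytoplasm. When the kinases are less active, YAP and TAZ enter the nucleus, bind TEAD proteins and switch on genes such as Ctgf and Cyr61. In the developing cortex YAP is known from the radial glia at the ventricle, where the pathway reads signals from apical junctions and YAP favours progenitor proliferation.

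Both groups were electroporated in utero at E13.5 and dissected 24 h later at E14.5, and the cells profiled were positive for mCherry, a red fluorescent protein that marks those which took up plasmid. The 3 control libraries came from cells given a plasmid for mCherry alone and the 3 Insm1 libraries from cells given a plasmid for Insm1 and mCherry. The sources used here do not give the promoter of the plasmids, the mouse strain or the number of embryos behind a library. The labels number the libraries without saying that they came from separate litters, so errors and p-values below cover only library-to-library spread, some of which may be technical. Such cells are a mixture of progenitors and their young progeny, and in such bulk RNA fewer cells of a type and less RNA per cell cannot be told apart.

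The 250 bases before the RefSeq start site (GRCm38.p6) of 5 of the genes are shown because the results turn most on these genes or their relatives and because each holds the core letters that TEAD proteins bind. Capitals mark GGAATG, or CATTCC where the letters lie on the other strand, and each sequence reads 5′ to 3′ on the gene's own strand. The RefSeq starts used for Cyr61, Ajuba and Amotl2 differ from the outer gene ends in the GENCODE annotation given at the end.
Yap1, chr9:8004597-8004846, minus strand: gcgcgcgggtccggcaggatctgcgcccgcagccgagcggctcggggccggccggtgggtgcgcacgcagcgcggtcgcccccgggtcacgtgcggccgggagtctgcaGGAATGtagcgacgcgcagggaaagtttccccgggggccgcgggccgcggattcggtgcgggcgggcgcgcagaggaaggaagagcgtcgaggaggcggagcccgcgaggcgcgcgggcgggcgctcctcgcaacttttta
Wwtr1, chr3:57575911-57576160, minus strand: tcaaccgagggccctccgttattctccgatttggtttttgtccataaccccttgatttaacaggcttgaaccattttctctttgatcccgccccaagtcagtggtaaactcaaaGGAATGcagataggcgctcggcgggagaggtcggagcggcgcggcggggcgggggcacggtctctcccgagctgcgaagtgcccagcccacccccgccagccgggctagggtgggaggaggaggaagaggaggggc
Cyr61, chr3:145649986-145650235, minus strand: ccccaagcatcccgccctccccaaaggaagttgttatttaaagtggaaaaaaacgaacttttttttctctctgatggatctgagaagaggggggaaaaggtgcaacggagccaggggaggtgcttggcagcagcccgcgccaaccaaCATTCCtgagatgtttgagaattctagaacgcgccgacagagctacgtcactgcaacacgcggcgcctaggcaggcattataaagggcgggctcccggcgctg
Ajuba, chr14:54577662-54577911, minus strand: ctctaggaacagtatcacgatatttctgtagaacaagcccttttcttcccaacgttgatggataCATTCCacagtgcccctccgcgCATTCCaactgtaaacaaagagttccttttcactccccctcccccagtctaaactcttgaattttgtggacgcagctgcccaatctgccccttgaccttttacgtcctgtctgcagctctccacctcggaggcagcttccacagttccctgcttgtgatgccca
Amotl2, chr9:102717554-102717803, plus strand: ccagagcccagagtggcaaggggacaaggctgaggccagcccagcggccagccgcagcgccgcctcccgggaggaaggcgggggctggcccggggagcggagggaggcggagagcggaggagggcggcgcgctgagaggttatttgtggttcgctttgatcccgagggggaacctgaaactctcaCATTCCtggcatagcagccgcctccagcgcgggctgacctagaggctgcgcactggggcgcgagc

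The match began 141 bases before the start site in Yap1, 136 in Wwtr1, 103 in Cyr61 and 65 in Amotl2. Ajuba held a pair of matches, 186 and 164 bases before the start. Of the 10 genes, 8 had an entry in the promoter table, and 7 of these 8 had a match in a window from 250 bases before to 50 bases after a start site. Tead2 had an entry and no match in its window, and Tead1 and Ctgf had no entry. Tead3 held matches in 2 of its 3 windows, and Lats2 held 1 match, which began 4 bases after a start site. Over all 32851 windows of 300 bases in the table, 14.7% held the letters on either strand. Among genes tested here with an entry it was 1520 of 10629 genes (14.3%), with 1.29 windows per gene against 1.5 for the 10 genes. Of genes called lower with Insm1, 32 of 221 with an entry held a match, and of genes called higher 16 of 133 (12.0%). Of 59 other genes of the pathway 45 had an entry, and 14 of these (31.1%) held a match. A match of 6 letters is a description of the sequence and does not show that a protein binds there.

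Library totals lay between 30017645 and 31645135 counts, and Insm1 transcripts rose 5.61-fold, from 308 ± 76.8 to 1726 ± 393 CPM (SD, n = 3). CPM are the deposited counts brought to a common library size, with edgeR's TMM scaling, and counts of Insm1 pool plasmid and chromosomal transcripts. Over all genes tested, 454 (3.35%) were called at an adjusted p below 0.05 in edgeR's quasi-likelihood test, 287 (2.12%) lower and 167 (1.23%) higher with Insm1. Without control 3, control 1, Insm1 library 2 or Insm1 library 3 the number called was 116, 234, 194 or 218. Of the 10 Hippo genes 4 were called, all lower. These were Ctgf, Cyr61, Wwtr1 and Ajuba. The log2 fold change was negative in each of the 10, against 51.9% of all genes tested, and their median was -0.59 against -0.0086 over all genes tested. In 8 of the 10 every Insm1 library lay below every control library, against 11.8% of all genes tested. Over all genes tested 10.4% lay wholly above the controls, and 22.2% were apart in either direction. Because the fold changes were known when the genes were chosen, nothing is read from these shares.

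**Figure D1:**
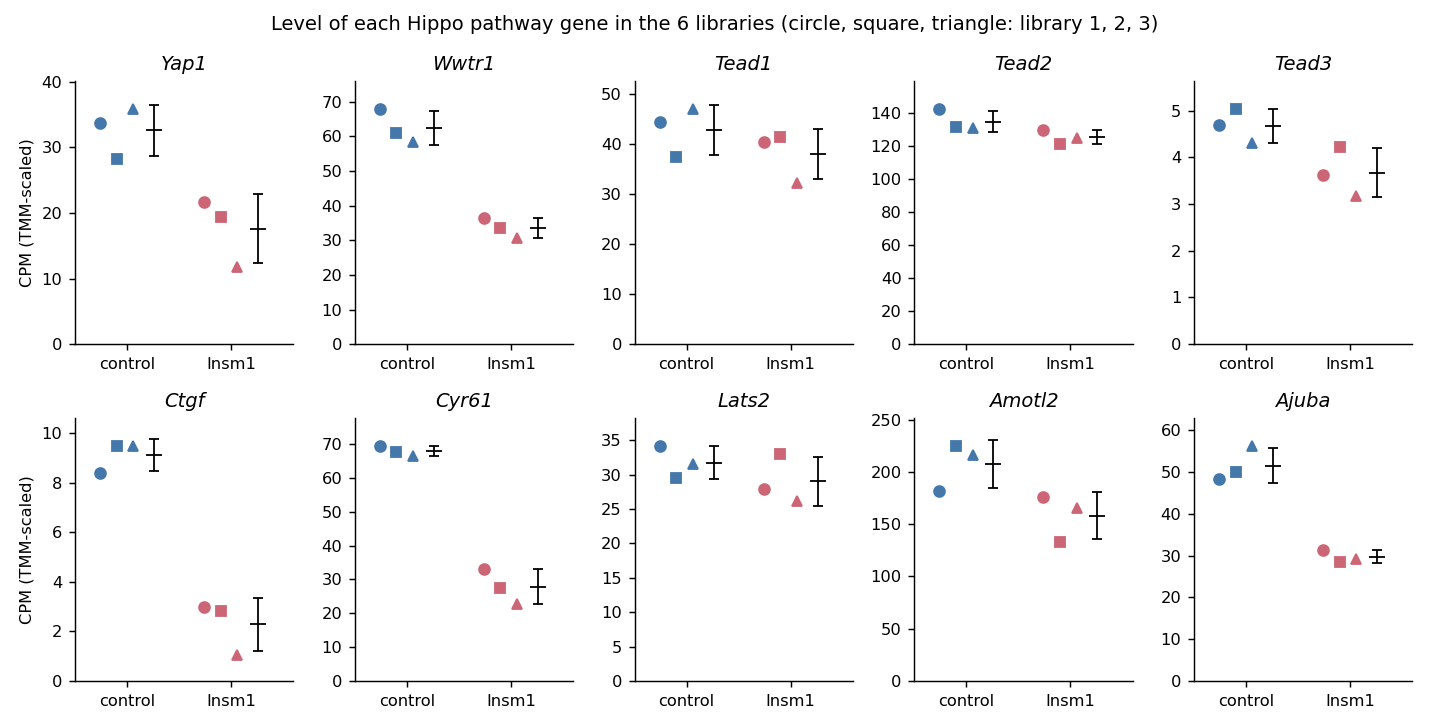
Level of the 10 Hippo pathway genes in each library, as TMM-scaled CPM on axes that start at 0. Circles, squares and triangles are libraries 1, 2 and 3 of a group, and the bar beside them is the mean ± SD of 3 libraries. The groups are apart for 8 genes and overlap for Tead1 and Lats2.

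Among the coactivators, Wwtr1 encodes TAZ, the close relative of YAP. It stood at 67.8, 61.0 and 58.3 CPM in controls 1, 2 and 3, and at 36.4, 33.4 and 30.6 CPM in Insm1 libraries 1, 2 and 3. Every Insm1 library was thus well below the lowest control. Wwtr1 fell 1.86-fold, a log2 fold change of -0.90 (SE 0.10), and the call held whichever library was omitted.

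Yap1 was at 33.7, 28.3 and 35.8 CPM in the controls and at 21.7, 19.4 and 11.7 CPM in the Insm1 libraries. The groups did not overlap, but Insm1 library 3 lay far under the others. The mean was 32.6 ± 3.90 CPM (SD, n = 3) in the controls and 17.6 ± 5.23 CPM (SD, n = 3) with Insm1, a log2 fold change of -0.89 (SE 0.21). The size was close to that of Wwtr1 with a larger error, and Yap1 lay just outside the call. It was called lower in 2 of the 6 fits that left out a library, without control 2 (log2 fold change -0.98) and without Insm1 library 1 (-1.07), and not in the other 4, among them that without Insm1 library 3 (-0.67). Of 10 other fits of all 6 libraries 5 called it, among them DESeq2 and limma-voom. The other 5 did not, among them both limma fits of TPM and the replicate block.

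Levels of different genes are compared as CPM per kb of exon, from the union of each gene's exons in the GENCODE M21 annotation. The deposited TPM were not used for this because they divide by the whole genomic span of a gene, introns included. Of 10924 genes with at least 100 counts in control 1, 97.2% fitted that length within 5%, and 4.05% fitted the exonic length. On the exonic scale Wwtr1 stood above Yap1. The ratio of Yap1 to Wwtr1 was 0.257, 0.239 and 0.317 in the controls and 0.307, 0.300 and 0.197 in the Insm1 libraries. The ratios of the groups overlapped, with the lowest in Insm1 library 3.

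The Tead genes encode the proteins that carry YAP and TAZ to DNA, and none of the 3 was called. Tead2 was at 142, 131 and 131 CPM in the controls and at 130, 121 and 125 CPM with Insm1. These values barely separate, and the log2 fold change came to -0.11 (SE 0.067). Tead2 shares exon sequence with Cd37, a leukocyte gene.

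Tead1 was at 44.3, 37.4 and 47.0 CPM in the controls and at 40.4, 41.4 and 32.3 CPM with Insm1, so that the groups overlapped. Its log2 fold change came to -0.17 (SE 0.13). Tead3 was the lowest in CPM of the 3, at 4.31 to 5.03 CPM in the controls and 3.17 to 4.21 CPM with Insm1. Its groups were apart, but the log2 fold change of -0.35 had an SE of 0.24.

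Tead2 was the most abundant of the Tead genes per exonic length. Its share of the summed CPM per kb of Tead1 to Tead4 was 86.9% to 88.7% in the controls and 87.2% to 90.2% with Insm1. Tead4 had 0, 0 and 3 counts in the controls and 0, 5 and 0 counts in the Insm1 libraries, too few to be tested. For the Tead genes an unadjusted p below 0.05 was reached by 0 of 3 in edgeR, and DESeq2 and limma-voom called 0.

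Ctgf and Cyr61 encode secreted CCN matrix proteins and are the most used readouts of YAP and TAZ activity. They showed the largest differences of the 10 genes. Cyr61 was at 69.5, 67.7 and 66.7 CPM in the controls and at 33.2, 27.5 and 22.8 CPM with Insm1. The control libraries were nearly alike and the Insm1 libraries all lay far below them. Cyr61 fell 2.44-fold, a log2 fold change of -1.29 (SE 0.13), and the call held whichever library was omitted.

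Ctgf was much less abundant, with 259, 292 and 290 counts in the controls and 92, 87 and 32 counts with Insm1. In CPM these are 8.39, 9.48 and 9.47 against 2.97, 2.82 and 1.03. The groups were far apart, and Insm1 library 3 stood lowest. Ctgf fell from 9.11 ± 0.627 to 2.28 ± 1.08 CPM (SD, n = 3), a log2 fold change of -2.00 (SE 0.35). The call was lost without control 3, where the log2 fold change was -1.97, and kept without any other library. Among the 13560 genes, ordered from the most negative log2 fold change, Ctgf stood at place 94, Cyr61 at 327, Wwtr1 at 665, Yap1 at 676 and Ajuba at 802.

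Both target genes were lower, and whether they fell by unequal amounts was not tested. The ratio of Cyr61 to Ctgf in CPM per kb of exon was 11.7, 10.1 and 9.98 in the controls and 15.8, 13.8 and 31.2 with Insm1. The highest control ratio was below the lowest Insm1 ratio, and Insm1 library 3, with only 32 Ctgf counts, gave the largest.

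Lats2 and Amotl2 restrain YAP and are also known as its targets. Lats2 encodes a kinase that phosphorylates YAP and TAZ, and Amotl2 a motin that binds YAP at junctions. Amotl2 was at 182, 225 and 216 CPM in the controls and at 176, 133 and 165 CPM with Insm1. The highest Insm1 library was only a little below control 1. Its log2 fold change came to -0.39 (SE 0.11), and it was not called, although DESeq2 called it lower. Lats2 was at 34.2, 29.5 and 31.6 CPM in the controls and at 27.9, 33.0 and 26.1 CPM with Insm1. The groups overlapped, and the log2 fold change came to -0.13 (SE 0.12).

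Ajuba encodes a LIM-domain protein of junctions and the nucleus that binds Lats kinases and limits their activity. It was at 48.2, 49.9 and 56.2 CPM in the controls and at 31.4, 28.4 and 29.3 CPM with Insm1. The Insm1 libraries lay close together and all under the controls. The log2 fold change in counts came to -0.79 (SE 0.10), and the call held whichever library was omitted.

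**Figure D2:**
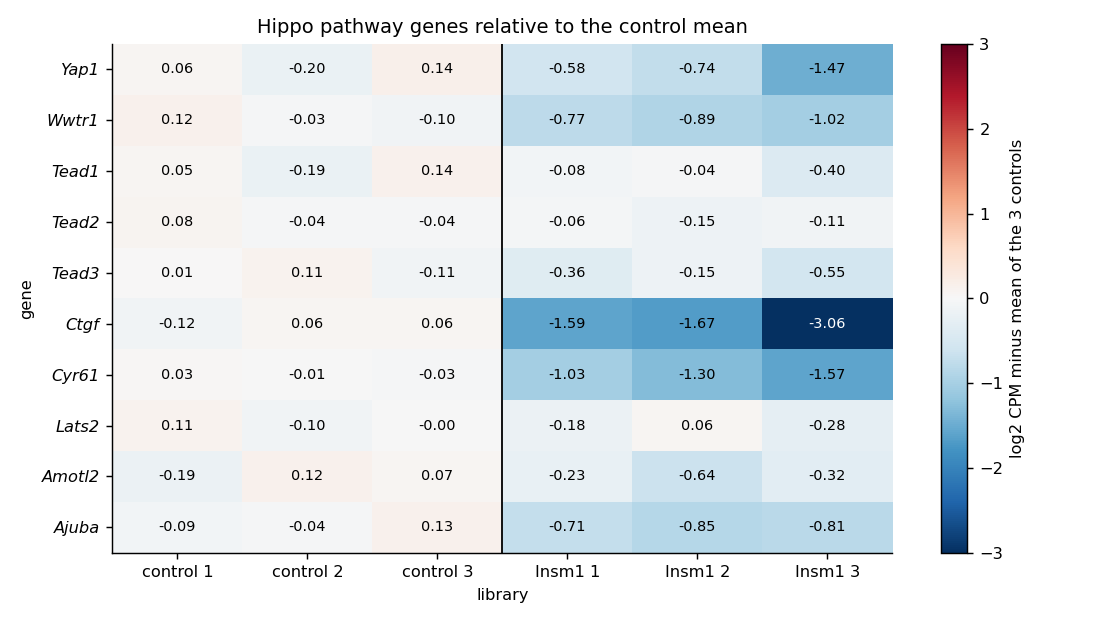
Log2 CPM of each gene in each library minus the mean of the 3 controls, with blue for lower and red for higher values. The Insm1 columns run from 0.06 for Lats2 in library 2 to -3.06 for Ctgf in library 3, and the controls stay within 0.20 of their mean.

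Insm1 library 3 held the lowest of the 3 Insm1 values for 7 of the 10 genes and library 2 for the other 3. The share of all genes tested with their lowest Insm1 value in library 3 was not computed, so nothing is read from this count. Library 3 also had the lowest summed level of 13 apical progenitor markers, the radial glia genes Pax6, Sox2, Hes1, Hes5, Fabp7, Slc1a3, Nes, Vim, Sox9, Id4, Nr2e1, Prom1 and Emx2. This sum was 4089 to 4666 CPM in the controls and 2765 to 3463 CPM with Insm1. Of the 13 markers 7 fell and 6 did not pass, with a median log2 fold change of -0.60, close to the -0.59 of the Hippo genes. The part of these progenitor transcripts in the lower Hippo gene levels was not tested.

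As a description added after the values were seen, each Hippo gene was expressed per 1000 CPM of that marker sum. Cyr61 was then 14.9 to 16.3 in the controls and 8.24 to 9.60 with Insm1, 1.76-fold lower. Ctgf was 2.96-fold, Yap1 1.35-fold and Wwtr1 1.33-fold lower, and in each of these 4 genes the groups stayed apart. Ajuba, at 10.3 to 13.8 and 8.84 to 10.6, and Amotl2 and Tead3 then overlapped. Tead1, Tead2 and Lats2 were above all controls on this scale, Tead2 at 29.7 to 32.0 against 37.4 to 45.2. The marker sum itself was lower with Insm1, so a gene of unchanged CPM is higher on this scale. The share of all genes tested that are apart on this scale was not computed, so nothing is read from these counts. Each marker counted by its CPM, so Hes5 weighed most. It was at 1260 ± 211 and 1165 ± 107 CPM (SD, n = 3) and was not called. The 7 markers called lower fell from 1.44-fold (Vim) to 2.29-fold (Id4). The 6 not called were from 1.07-fold (Pax6) to 1.76-fold (Hes1) lower. Wwtr1 was 1.86-fold and Yap1 1.85-fold lower. The folds on this scale depend on these weights, and a fall beyond that of progenitor transcripts was not tested.

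Markers of vessel and meningeal cells, which carry Ctgf and Cyr61 RNA in many tissues, were low in every library. The 7 endothelial markers summed to 0.519 to 1.37 CPM in the controls and 1.07 to 2.56 CPM with Insm1, and the 9 pericyte and meningeal fibroblast markers to 3.39 to 5.10 and 2.92 to 5.30 CPM. No marker of either list was at 0 in every library, while Cdh5 and Tek of the first list and Col3a1 of the second were at 0 in the 3 controls. Esam, the most counted endothelial marker in the controls, was at 0.477 ± 0.390 CPM there, and Col1a1 at 2.01 ± 0.376 CPM (SD, n = 3). Cyr61 was at 22.8 CPM or more in each library, and Ctgf at 8.39 to 9.48 CPM in the controls and 1.03 to 2.97 CPM with Insm1. The part of vessel and meningeal cells in the RNA of either gene was not tested. Basal progenitor markers summed to 2032 to 2285 and 2298 to 2481 CPM, with 3 of 9 called higher. Of these 9, 5 had a negative log2 fold change, and the median was -0.030. Projection neuron markers summed to 6167 to 6419 and 7189 to 7865 CPM, with 4 of 10 called higher and 0 called lower. Mapt, Stmn2 and Nefl, named after their values were seen, lay wholly below the controls without a call, 3 neuron markers were lower at an unadjusted edgeR p below 0.05 and DESeq2 called 2 lower. Red cell markers were at 307 to 5258 CPM in the controls and 3497 to 4891 CPM with Insm1. The 7 microglial markers summed to 1.10 to 61.3 CPM in the controls, highest in control 2, and to 8.99 to 31.3 CPM with Insm1. The 4 Cajal-Retzius markers summed to 126, 31.4 and 123 CPM in controls 1, 2 and 3 and to 32.4 to 47.9 CPM with Insm1. Each had a negative log2 fold change, with a median of -1.61. EdgeR called 0 of them, 2 were lower at an unadjusted edgeR p below 0.05, and DESeq2 called 1 lower. Choroid plexus markers were at 0.454 to 2.14 and 0.227 to 0.873 CPM. Interneuron markers summed to 8.31 to 16.1 and 5.40 to 8.21 CPM, without overlap. Of these 6 markers edgeR called 0, 2 were lower at an unadjusted p below 0.05, and DESeq2 called 1 lower.

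Per exonic length the genes of highest level in the controls were Cyr61 at 33.7 ± 0.717, Amotl2 at 33.0 ± 3.64 and Tead2 at 28.2 ± 1.36 CPM per kb (SD, n = 3). Ajuba at 14.1 ± 1.16 and Wwtr1 at 13.1 ± 1.03 CPM per kb came next (SD, n = 3). Lats2 at 4.55 ± 0.337, Yap1 at 3.52 ± 0.421, Ctgf at 3.18 ± 0.219 and Tead1 at 3.16 ± 0.366 CPM per kb were lower, and Tead3 was lowest at 0.697 ± 0.0538 CPM per kb (SD, n = 3). The control libraries of Cyr61 and Amotl2, Amotl2 and Tead2, Ajuba and Wwtr1, Yap1 and Ctgf, and Ctgf and Tead1 overlapped, so these neighbours did not differ beyond their spread. With Insm1, Tead2 at 26.2 ± 0.881 and Amotl2 at 25.2 ± 3.59 stood above Cyr61 at 13.8 ± 2.59 CPM per kb (SD, n = 3). Ctgf was then at 0.795 ± 0.377 CPM per kb (SD, n = 3).

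**Figure D3:**
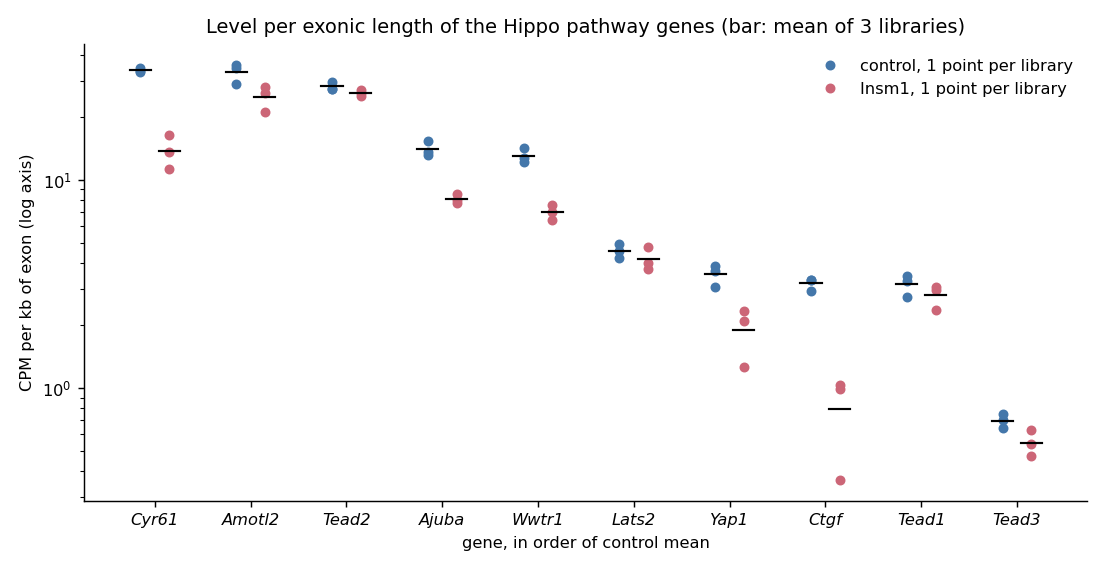
CPM per kb of exon of the 10 genes on a log axis, ordered by the control mean, with 1 point per library and a bar at the mean of 3 libraries. Cyr61 stands at 33.7 in the controls and 13.8 with Insm1, and Tead3 is lowest in the controls at 0.697 CPM per kb.

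The rest of the pathway was read from 59 further genes in 7 lists, of which 55 could be tested. Of these 55, 4 fell, 1 rose and 50 did not pass, where 2.12% of all genes tested were called lower and 1.23% higher. The median log2 fold change of the 55 was -0.088. These lists were also chosen with earlier results of these data known, so nothing is read from the counts. The sum of the 59 genes was 3870 to 3959 CPM in the controls and 3831 to 4186 CPM with Insm1. The 10 genes summed to 635 to 656 and 444 to 503 CPM. As they were chosen with their fold changes known, no contrast between the sums is read.

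The kinases that act on YAP and TAZ showed no call. In the core cassette, Stk3 and Stk4 encode the MST kinases, Sav1 and Mob1a with Mob1b their adaptors, and Lats1 the other Lats kinase. EdgeR called 0 of the 6, 0 reached an unadjusted p below 0.05 in edgeR and DESeq2 called 0. The highest in deposited TPM, Mob1a, was at 88.5 ± 3.91 and 88.3 ± 12.1 CPM (SD, n = 3). Among the 9 MAP4K and TAO kinases that act on Lats, edgeR and DESeq2 likewise called 0, and 0 had an unadjusted edgeR p below 0.05. Taok2 was at 98.8 ± 8.36 and 112 ± 11.5 CPM (SD, n = 3).

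Upstream adaptors and cadherins went both ways, with 1 of 9 lower, 1 higher and 7 not passing. Fat4 encodes a giant cadherin that binds Dchs1 on the neighbouring cell, and the pair is known in mouse cortex for restraining progenitor growth. Fat4 was at 125, 104 and 133 CPM in the controls and at 64.9, 71.0 and 82.8 CPM with Insm1, with the groups apart. It fell 1.66-fold (log2 fold change -0.73, SE 0.11, adjusted p = 0.0104 in edgeR). Its ligand gene Dchs1 was at 299, 318 and 298 CPM in the controls and at 369, 427 and 380 CPM with Insm1, and rose 1.29-fold (log2 fold change 0.36, SE 0.068, adjusted p = 0.0203 in edgeR). The Fat4 call was lost without control 3 (edgeR adjusted p = 0.0563, from 0.00331 to 0.0563 over the 6 libraries left out). The Dchs1 call was kept only without control 2 or Insm1 library 1 (edgeR adjusted p from 0.0160 to 0.0899 over the 6). Nf2, which encodes the scaffold merlin, was at 143 ± 3.44 and 156 ± 3.00 CPM and did not pass (SD, n = 3; edgeR adjusted p = 0.311). Wwc2, a relative of the Lats activator Kibra that was picked out after its values were seen, was at 24.7 ± 1.85 and 13.1 ± 4.23 CPM (SD, n = 3; edgeR adjusted p = 0.0557), and shares exon sequence with Cldn22.

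Among 5 LIM-domain relatives of Ajuba 1 fell and 4 did not pass. Trip6 encodes a zyxin-family protein that, like Ajuba, is known to bind and inhibit Lats. It was at 19.5, 25.6 and 22.9 CPM in the controls and at 15.0, 14.7 and 11.5 CPM with Insm1, and fell 1.65-fold (log2 fold change -0.72, SE 0.16, edgeR adjusted p = 0.0372). The call was kept without control 1 and lost without any other library (edgeR adjusted p from 0.0474 to 0.138). Limd1, of the same subfamily as Ajuba, was at 125 ± 8.11 and 132 ± 8.40 CPM (SD, n = 3; edgeR adjusted p = 0.734), and Zyx, the highest in deposited TPM, at 71.4 ± 7.60 and 62.0 ± 4.82 CPM (SD, n = 3; edgeR adjusted p = 0.346). Limd1 was picked out after its values were seen, and Zyx shares exon sequence with Epha1.

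Subunits of STRIPAK, a phosphatase complex that opposes the MST kinases, were not called. Of the 8, edgeR called 0 and DESeq2 1 (lower), while 3 had an unadjusted edgeR p below 0.05. Strn4 was at 288 ± 27.6 and 311 ± 12.1 CPM (SD, n = 3). Of Tead4 and the Vgll cofactors only Vgll3 and Vgll4 could be tested. EdgeR and DESeq2 called 0 of the 2, and 1 had an unadjusted edgeR p below 0.05. Vgll4, which competes with YAP for TEAD, was at 62.9 ± 2.65 and 71.6 ± 2.43 CPM (SD, n = 3).

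From a published signature of YAP and TAZ target genes, drawn mainly from human cancer cells, 17 genes were listed here beside those among the 10. Of the 16 that could be tested, 2 fell and 14 did not pass, with a median log2 fold change of -0.23. Igfbp3, which encodes a carrier of insulin-like growth factors, had 517, 155 and 245 counts in the controls and 72, 65 and 67 counts with Insm1, or 9.92 ± 6.09 and 2.20 ± 0.114 CPM (SD, n = 3). Its controls were widely spread, control 1 highest, and all lay above the Insm1 libraries. Igfbp3 fell 4.51-fold (log2 fold change -2.17, SE 0.40, edgeR adjusted p = 0.0195), and its call was lost without control 3 or any Insm1 library (edgeR adjusted p from 0.00305 to 0.0860 over the 6). Without control 1 its log2 fold change was -1.56. Ccdc80, which encodes a matrix protein, had 1085, 884 and 543 counts in the controls and 330, 375 and 450 counts with Insm1, or 27.2 ± 8.80 and 12.5 ± 1.96 CPM (SD, n = 3). It fell 2.18-fold (log2 fold change -1.13, SE 0.23, edgeR adjusted p = 0.0316), and the call was kept only without control 2 or control 3 (edgeR adjusted p from 0.0278 to 0.108). Fjx1, the highest in deposited TPM of those not called, was at 84.1 ± 6.88 and 78.2 ± 7.38 CPM (SD, n = 3; edgeR adjusted p = 0.660). Axl, a receptor tyrosine kinase picked out after its values were seen, was at 30.7 ± 5.74 and 18.4 ± 3.64 CPM (SD, n = 3; edgeR adjusted p = 0.0560). Ankrd1, a readout of YAP in many cell types, had too few counts to be tested.

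**Figure D4:**
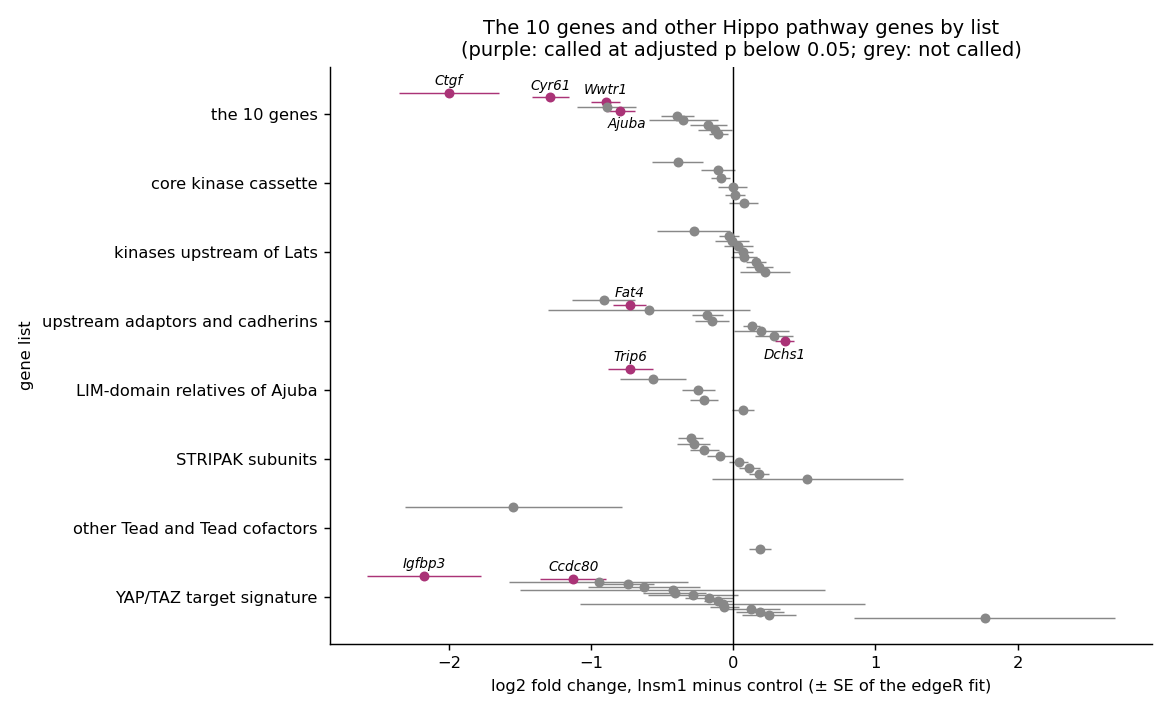
Log2 fold change (Insm1 minus control, ± SE of the edgeR fit) of the 10 genes and of the tested genes of 7 further pathway lists, 1 point per gene. Purple points were called at an adjusted p below 0.05, 4 among the 10 genes and 5 among the 55 others, of which only Dchs1 is above 0.

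The genes whose values over the 6 libraries were most like those of Ajuba were sought among 10314 other genes with a mean of at least 5 CPM, by the root-mean-square difference of centred log2 CPM. Among the 5 nearest were Fgfbp3, which binds FGFs (difference 0.064), B3gat1, which helps to make the HNK-1 carbohydrate and shares exon sequence with Glb1l2 (0.069), the adhesion receptor gene Bai2 (0.089) and the tensin gene Tns3 (0.090). These 4 were called and were 1.65-fold to 1.81-fold lower with Insm1, against 1.73-fold for Ajuba. The calls of Fgfbp3, B3gat1 and Bai2 were lost without control 3, and that of Tns3 without any 1 of the 6 libraries. Nearest to Yap1 were Zfp36l1, which promotes mRNA decay (0.11), the actin-binding gene Cap2 (0.12), Sox13 (0.13), the TGF-beta effector gene Smad3 (0.13) and the progenitor factor gene Sox3 (0.15). Of these only Cap2 was called, and when a library was left out the call was kept only without control 2 or Insm1 library 1. Each had its lowest value in Insm1 library 3, as Yap1 did, and Smad3 was at 18.8, 15.7 and 7.79 CPM in Insm1 libraries 1, 2 and 3. The list follows from the shape of 6 values and says nothing of shared control.

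On GRCm38 in the GENCODE M21 annotation, the 10 are protein-coding genes. Yap1 (ENSMUSG00000053110, minus strand) lies at chr9:7931999-8004596 and Amotl2 (ENSMUSG00000032531, plus strand) at chr9:102716672-102733418. Wwtr1 (ENSMUSG00000027803, minus strand) lies at chr3:57455649-57575910 and Cyr61 (ENSMUSG00000028195, minus strand) at chr3:145646976-145649981. Ajuba (ENSMUSG00000022178, minus strand) lies at chr14:54567472-54577558 and Lats2 (ENSMUSG00000021959, minus strand) at chr14:57689662-57758388. Tead1 (ENSMUSG00000055320, plus strand) lies at chr7:112679318-112906807, Tead2 (ENSMUSG00000030796, plus strand) at chr7:45215753-45233644, Tead3 (ENSMUSG00000002249, minus strand) at chr17:28331671-28350817 and Ctgf (ENSMUSG00000019997, plus strand) at chr10:24595442-24598683. Apart from Tead2, none shares exon sequence with another gene of the table.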

How the data were processed

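RNA of mCherry-positive cells was measured in 3 control and 3 Insm1 libraries. Per the labels' protocols, cDNA primed on poly(A) tails was extended by template switching, PCR-amplified (12 cycles), sheared, amplified again as libraries (15 cycles) and sequenced in single 75-base reads. Such libraries mark no strand and hold no molecular identifiers. The submitters' processing notes name GRCm38 as the build and list Bowtie, TopHat2 2.0.13 and bcl2fastq as tools. How reads were counted, with which strand setting and annotation, was not given in the sources used here. Deposited counts are whole numbers per Ensembl gene, and the authors' deposited TPM values hold the same genes, 333 of them without a value. These TPM divide by genomic span, which was found after the values were seen, so levels between genes are given per kb of exon instead. Within a gene the span is the same in each library. The constant added before the limma fits of TPM weighs most on low TPM, which a long span lowers further. The log2 fold change of Tns3 was -0.72 in edgeR and -0.23 in limma on log2(TPM + 1).

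Genes kept by filterByExpr were scaled by TMM and compared by edgeR 4.0.16 under R 4.3.3 (robust glmQLFit, glmQLFTest), two-sided, with Benjamini-Hochberg adjusted p-values over all 13560 genes. Standard errors come from the F statistic. The fit was tested on simulated data. Within groups, the chi-square of each library pair was 12.9 to 32.5 per degree of freedom, so none was the same library deposited again. Repeats of 1 RNA would not be told from separate samples by this. DESeq2 1.42.0, limma 3.58.1, other scalings and filters, a replicate block and each library left out were alternatives.

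The 10 genes, the pathway and marker lists and the tests were chosen with earlier results of these data known. The naming rule took the 10 genes, Insm1, called genes and the uncalled gene of highest deposited TPM in each pathway list, which the span scaling can decide, and the 5 genes most like Ajuba and the 5 most like Yap1, of which 1 is not reported here. It also took leading genes of each marker list, most of which are given only as sums. GENCODE M21 held 21492 of the 22001 identifiers. Promoters are from RefSeq, GRCm38.p6.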

Additional observations from a re-analysis of the deposited data

How the results depend on the processing

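The 10 Hippo genes called numbered 4, and 3 to 6 over the 16 alternatives, all lower each time. Wwtr1, Cyr61 and Ajuba were called in each alternative. The median log2 fold change of the 10 moved beyond the library spread only with at least 5 CPM in 3 libraries, to -0.81, because Tead3 then left the test, and was -0.66 to -0.55 with single libraries left out. Over all genes DESeq2 called 1016, limma on log2(TPM + 1) 100 and limma on log2(TPM + 0.1) 96, and single libraries left out gave 116 to 645. Of the 55 other pathway genes DESeq2 called 8, and both limma fits of TPM called 0, with 14 and 15 at an unadjusted p below 0.05, where edgeR called 5. Single libraries left out gave 1 to 4. The cause of these shifts was not tested. The replicate block gave 331 genes, 4 of the 10 Hippo genes and 4 of the 55 others, which no longer included Trip6 and Ccdc80. Deviations of same-numbered libraries correlated at 0.074, 0.035 and -0.055, and those of the other pairs at -0.097 to 0.065. These values show no pairing by number and are too few to exclude it.

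Of the genes named by rule, a few that were not called changed sign. Mob1a was at 0.000498 with RLE scaling and with DESeq2, at 0.0035 with no filter and at -0.12 to 0.078 with single libraries left out. Neurog2 was at -0.41 to 0.065 and Dlx2 at -0.27 to 0.62 with single libraries left out. The microglial gene C1qb was at 0.90 in limma-voom, 0.43 and 0.78 in limma on log2(TPM + 1) and log2(TPM + 0.1), 0.72 with the replicate block and -0.81 to 1.86 with single libraries left out. Depth limits low genes such as Ctgf, at 32 counts in Insm1 library 3.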

Other observations

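The letters CAGGGG, the core of the sequence that INSM1 is known to bind, were looked for in the same promoter windows on both strands. They were in a window of 3 of the 8 Hippo genes with an entry, Tead2, Tead3 and Cyr61, against 26.6% of all 27025 genes in the table and 24.1% of its 32851 windows. Of these genes only Cyr61 was called lower with Insm1. No match overlapped one of GGAATG, and a missing match says only that the letters are not in these windows.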
